A study of Chlamydomonas reinhardtii with 45 samples.

Results

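In Chlamydomonas reinhardtii, 68 transcripts were raised at 60 min of mannitol while they stood at or below the starting culture at 60 min of NaCl. They were chosen from 13651 transcripts that reached 1 TPM (transcript abundance scaled to a common library total) in at least 3 of 45 libraries, of 19526 in the table. For each transcript, the mean of log2(TPM + 1) in a group was taken minus the mean of the control at 0 h, a difference called D here. Members had a D of 2 or more at mannitol 60 min, of 0 or less but above -3 at NaCl 60 min, under 1.5 at NaCl 15 min and within 1.5 of 0 at NaCl 24 h. Of the 13651 transcripts, 390 met the first limit, 85 of these met the limits at NaCl 60 min, 74 remained after NaCl 15 min and 68 after NaCl 24 h. These 4 groups and the control at 0 h therefore chose the members, and every value from them is a description with no test. All 68 members passed the filter on low values, and the 68 belong to 68 genes with 1 transcript each in the table.

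Chlamydomonas is a unicellular freshwater green alga that meets a sudden rise in outside osmolarity by losing water, shrinking and then making compatible solutes, above all glycerol. NaCl brings ions that can enter the cell and are toxic in excess, whereas mannitol, a sugar alcohol, raises osmolarity with no ionic load. Early osmotic responses in algae, fungi and plants are usually pulses, in which transcripts peak within the first hour and return while the solute is still there.

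The cells were vegetative and haploid, of the wild-type strain CMJ030/CC-4533, grown in liquid TAP medium under low continuous light. Mannitol at 300 mM or NaCl at 100 mM was added, and cells were taken after 15, 30 and 60 min and 4, 6 and 24 h, with 3 libraries for each osmolyte and time. The doses differ in osmotic strength as well as in ions, and these cannot be told apart here. Untreated cells gave 4 libraries of control 24 h and 5 of control 0 h. Of the 68 members, only Cre03.g149400 carries a description in the sources used here, so the others are given by locus name, with the transcript suffix left out.

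The median D over all 13651 transcripts was -0.55 at mannitol 60 min, -0.57 at NaCl 60 min, -0.63 at NaCl 30 min and -0.06 at mannitol 30 min, and the deposited TPM were kept as they stand. The limit of 0 at NaCl 60 min lies above that median, and after median-ratio scaling 39 of the 68 members were above 0 at NaCl 60 min, while none fell under 2 at mannitol 60 min. In mannitol 30 min replicate 2, the median D of the members was 1.31, against 0.42 and 0.24 in replicates 1 and 3, and 66 of the 68 members were highest in that library among its 3, as were 20.4% of all transcripts. One transcript, g15293.t1, took 5.33% to 52.3% of all TPM in a library, and with TPM recomputed without it 70 transcripts met the limits, 46 of them among the 68.

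The median of the 68 transcripts had a single peak under each osmolyte, at 30 min under NaCl and at 60 min, where the choice placed it, under mannitol. Single members departed from it and are described with their values. Under mannitol the successive medians of D, for 15, 30 and 60 min and then 4, 6 and 24 h, were -0.21, 0.68, 2.28, -0.05, -0.22 and -0.05, and all 68 had their highest mannitol mean at 60 min. Under NaCl they were 0.72, 1.12, -0.34, -0.20, -0.26 and -0.28. The NaCl mean was highest at 30 min in 49 members and at 15 min in 16, in none at 60 min and in 1 at each later time. Of all transcripts, 11% were highest at 30 min and 30.1% at 15 min. The choice held NaCl 60 min at 0 or less and NaCl 15 min and 24 h under 1.5. It thus bore on the time of the NaCl peak, and these counts are a description. By library, the member median was 2.15, 2.69 and 2.15 at mannitol 60 min, against -0.44, -0.37 and -0.32 at NaCl 60 min. At NaCl 30 min it was 1.18, 1.06 and 1.04, against -0.42 to -0.23 in the 4 libraries of control 24 h and -0.14 to 0.26 in the 5 of control 0 h. The 3 libraries at NaCl 30 min thus lay above all 9 controls and below all 3 at mannitol 60 min.

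**Figure D1:**
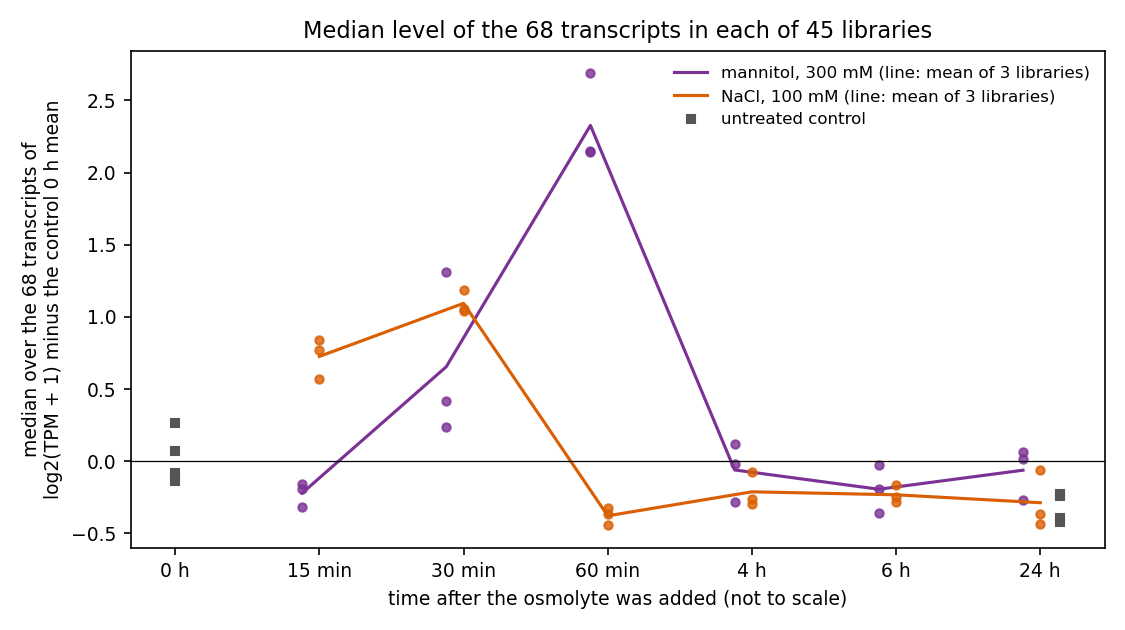
Median over the 68 transcripts of log2(TPM + 1) minus the control 0 h mean (y axis, log2 units) in each library, by time (x axis, not to scale). Each point is 1 library and lines join the means of 3; the NaCl libraries are highest at 30 min, at 1.04 to 1.18, and the mannitol libraries at 60 min, at 2.15 to 2.69.

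Summed over the 68 members, mannitol 60 min libraries held 1662, 2167 and 1804 TPM and control 0 h libraries 250.2 to 391 TPM, a ratio of means of 6.13. The sum was 861, 795 and 869 TPM at NaCl 30 min, a ratio of 2.75 to the same controls, and 165, 187 and 216 TPM at NaCl 60 min. For a single member, D at NaCl 30 min exceeded D at mannitol 60 min only in Cre02.g087750, by 0.21, and the median gap was -1.24. At NaCl 30 min D exceeded that at NaCl 60 min, which the choice held at 0 or less, in 67 of 68, with a median gap of 1.47. The exception was Cre03.g204850, with -0.78 at NaCl 30 min and -0.73 at NaCl 60 min.

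**Figure D2:**
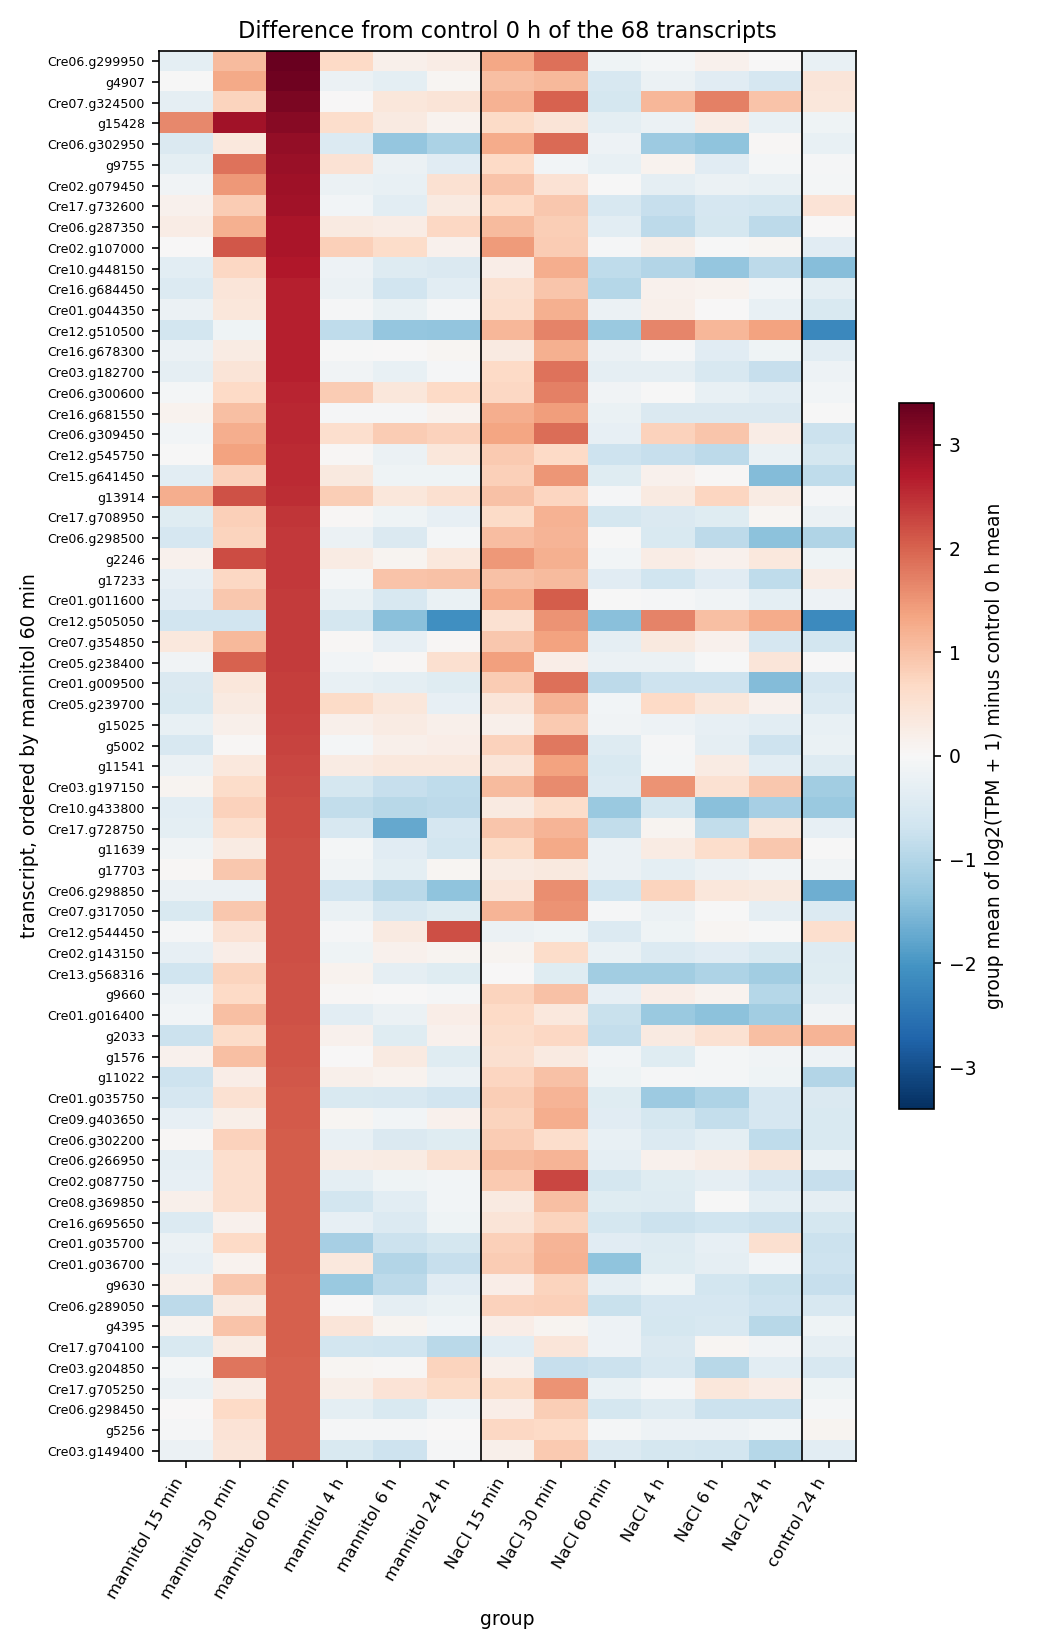
D of each of the 68 transcripts (rows, ordered by mannitol 60 min) in 13 groups (columns), in log2 units, red above and blue below control 0 h. The mannitol 60 min column, which chose the rows, runs from 2.01 to 3.36; the NaCl 15 and 30 min columns are mostly red, the NaCl 60 min column is at or below 0 by choice, and a few rows turn red again from NaCl 4 h on.

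Most members were scarce before treatment. Their control 0 h means ran from 0.173 to 30.6 TPM. Their median was 2.45 TPM and that of every transcript past the filter 5.48 TPM, and 19 members were under 1 TPM and 8 at 10 TPM or more. At mannitol 60 min their means ran from 4.06 to 140 TPM, with a median of 14.7. A difference of log2(TPM + 1) understates the fold change of the scarce ones. The number of reads behind each value is unknown, since every library sums to 1000000 TPM, so the error given is the spread between libraries.

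The largest D at mannitol 60 min was that of Cre06.g299950, at 3.36. It had 31.6, 39.6 and 23.0 TPM at mannitol 60 min, against 3.12, 1.64, 3.04, 1.49 and 1.59 TPM at control 0 h. Under NaCl it had 7.38, 7.87 and 5.14 TPM at 15 min, 10.7, 10.9 and 9.30 TPM at 30 min and 1.65, 1.59 and 2.26 TPM at 60 min. The NaCl pulse of this transcript was thus present, lower, and back within the range of the 0 h controls by 60 min. In contrast g4907, second at 3.32, was close to the floor outside its pulse, with 9.71, 22.3 and 13.6 TPM at mannitol 60 min, against 0.225 to 1.08 TPM at control 0 h. Its NaCl values peaked at 1.51 to 3.2 TPM at 30 min, and at 60 min it was listed at 0, 0.17 and 0 TPM.

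Cre07.g324500, next at 3.19, was among the most abundant. It had 99.0, 116 and 80.7 TPM at mannitol 60 min, against 23.0, 6.06, 8.18, 10.8 and 7.02 TPM at control 0 h. Under NaCl it had 47.6, 39.3 and 41.9 TPM at 30 min, 5.86, 5.52 and 6.98 TPM at 60 min, and 38.2, 39.1 and 27.1 TPM at 6 h. The low level at 60 min, which the choice of members required, thus lay between higher ones. It was near the lowest of the control 0 h values. Cre06.g302950 (D of 3) had 44.1, 61.7 and 55.9 TPM at mannitol 60 min, against 3.29 to 10.6 TPM at control 0 h, and 19.1, 20.1 and 38.9 TPM at NaCl 30 min. Cre02.g079450 (2.87) and Cre17.g732600 (2.86) were scarce, with 6.66 to 16.4 TPM and 9.23 to 19.3 TPM at mannitol 60 min and no more than 1.42 TPM in any control 0 h library. The remaining pair of the 8 largest, g15428 (3.09) and g9755 (2.93), had little or no rise at NaCl 30 min and is described with the 30 min comparison. At NaCl 15 min their D was 0.64 and 0.66. At mannitol 60 min g15428 had 4.37, 10.6 and 27.6 TPM, a wide spread between libraries, and g9755 had 22.3, 55.9 and 55.2 TPM.

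The gap between mannitol 60 min and NaCl 60 min was widest, at 3.92, in Cre12.g510500. This transcript had 95.8, 107 and 89.7 TPM at mannitol 60 min, against 5.54, 5.71 and 5.25 TPM at NaCl 60 min. Wide gaps were also held by g4907 (3.87), Cre07.g324500 (3.80), Cre12.g505050 (3.79), Cre16.g684450 (3.62), Cre10.g448150 (3.60), Cre10.g433800 (3.47) and Cre01.g036700 (3.41). Cre01.g036700 had 88.0, 86.5 and 75 TPM at mannitol 60 min, 6.31, 6.92 and 7.51 TPM at NaCl 60 min and 13.3 to 25.2 TPM at control 0 h, so it was below every 0 h library at NaCl 60 min. Cre13.g568316 (3.35) had 5.86, 18.1 and 7.13 TPM at mannitol 60 min and was listed at 0 in all 3 libraries at NaCl 60 min, at NaCl 4 h and at NaCl 24 h, with 0 to 2.07 TPM at control 0 h. Cre12.g545750 (3.25) closed this set, with 14.6, 17.4 and 11.5 TPM at mannitol 60 min and 0.402, 0.656 and 0.782 TPM at NaCl 60 min.

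Several limits had transcripts close by on both sides. At mannitol 60 min, Cre03.g149400 and g5256 (both 2.01) were just inside and Cre06.g290000 and Cre08.g384250 (both 1.99) just outside. At NaCl 60 min, Cre06.g298500 and Cre01.g011600 (both -0.02) were inside, and Cre03.g206100 (0.0010) and Cre15.g635400 (0.0072) outside. At NaCl 15 min, g2246 (1.46) and Cre02.g107000 (1.44) were inside, and Cre06.g260000 (1.5) and g11602 (1.52) outside. At NaCl 24 h, the lower limit had Cre01.g009500 and Cre15.g641450 (both -1.47) inside and Cre09.g400800 (-1.55) and Cre02.g117179 (-1.87) outside, and the upper limit had Cre12.g510500 (1.38) and Cre12.g505050 (1.26) inside and Cre10.g432250 (2.16) and Cre06.g306000 (3.06) outside.

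Whether the transcripts also responded to NaCl was tested with libraries that the choice had not used, NaCl 30 min against control 24 h. With limma over all 13651 transcripts, a call needed a change of more than 1 log2 unit besides an adjusted p (Benjamini-Hochberg) under 0.01. Of the 68, 48 were higher at NaCl 30 min and 0 were lower, where 9.87% of all transcripts tested were called higher and 15.6% lower. The median difference was 1.38 over the members and -0.33 over all transcripts, 64 members were above 0, and in 53 of 68 every NaCl 30 min library was above every control 24 h library, as in 16.6% of all transcripts. Leaving out any 1 library gave 43 to 50 members called, and 2667 to 3884 of all transcripts, against 3471 with every library. The median difference of the members was 1.49 in libraries numbered under 49 (2 against 3) and 1.28 in those numbered 49 or more (1 against 1). Cells at 30 min and untreated cells at 24 h also differ in culture age, which cannot be told apart from NaCl in this comparison.

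The largest of these differences belonged to Cre12.g510500, with 47.5, 50.0 and 50.2 TPM at NaCl 30 min, against 2.59, 3.01, 1.74 and 2.50 TPM at control 24 h. The log2 difference was 3.87 ± 0.19 (SE, adjusted p = 3.66e-07, limma), but its own 0 h controls stood at 13 to 16.7 TPM, so the level in untreated cells was itself lower at 24 h. Cre06.g298850 had 36.7, 32.6 and 32.5 TPM at NaCl 30 min, against 2.52, 2.82, 2.50 and 2.98 TPM at control 24 h (3.24 ± 0.18, adjusted p = 5.99e-07), and it too had been higher at control 0 h, at 7.96 to 15.6 TPM. Cre02.g087750 differed less between the sets of controls. It had 14.3, 14.6 and 13 TPM at NaCl 30 min, against 0.749, 1.07, 1.17 and 0.353 TPM at control 24 h and 1.68 to 2.69 TPM at control 0 h. Its log2 difference to control 24 h was 3.05 ± 0.22 (SE, adjusted p = 3.17e-06, limma).

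The other members with the highest D at NaCl 30 min, after Cre02.g087750 (2.27), were Cre01.g011600 (2.05), Cre07.g324500 (2.02), Cre06.g302950 (1.92), Cre06.g309450 (1.91) and Cre01.g009500 (1.87), and each was called higher against control 24 h. Cre01.g011600 had 33.4, 30.8 and 37.4 TPM at NaCl 30 min, against 5.5 to 7.94 TPM at control 24 h. Cre01.g009500 had 31.2, 32.5 and 26.0 TPM, against 4.10 to 5.16 TPM at control 24 h. At the other end, Cre03.g204850 (-0.78), Cre13.g568316 (-0.42), Cre12.g544450 (-0.16) and g9755 (-0.08) had the lowest D at NaCl 30 min, and none of the 4 was called against control 24 h, although every NaCl library of Cre12.g544450 was below every control (log2 difference -0.73). Cre03.g204850 was listed at 0, 0 and 0.408 TPM at NaCl 30 min, against 0 to 0.791 TPM at control 24 h, where both groups overlap.

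**Figure D3:**
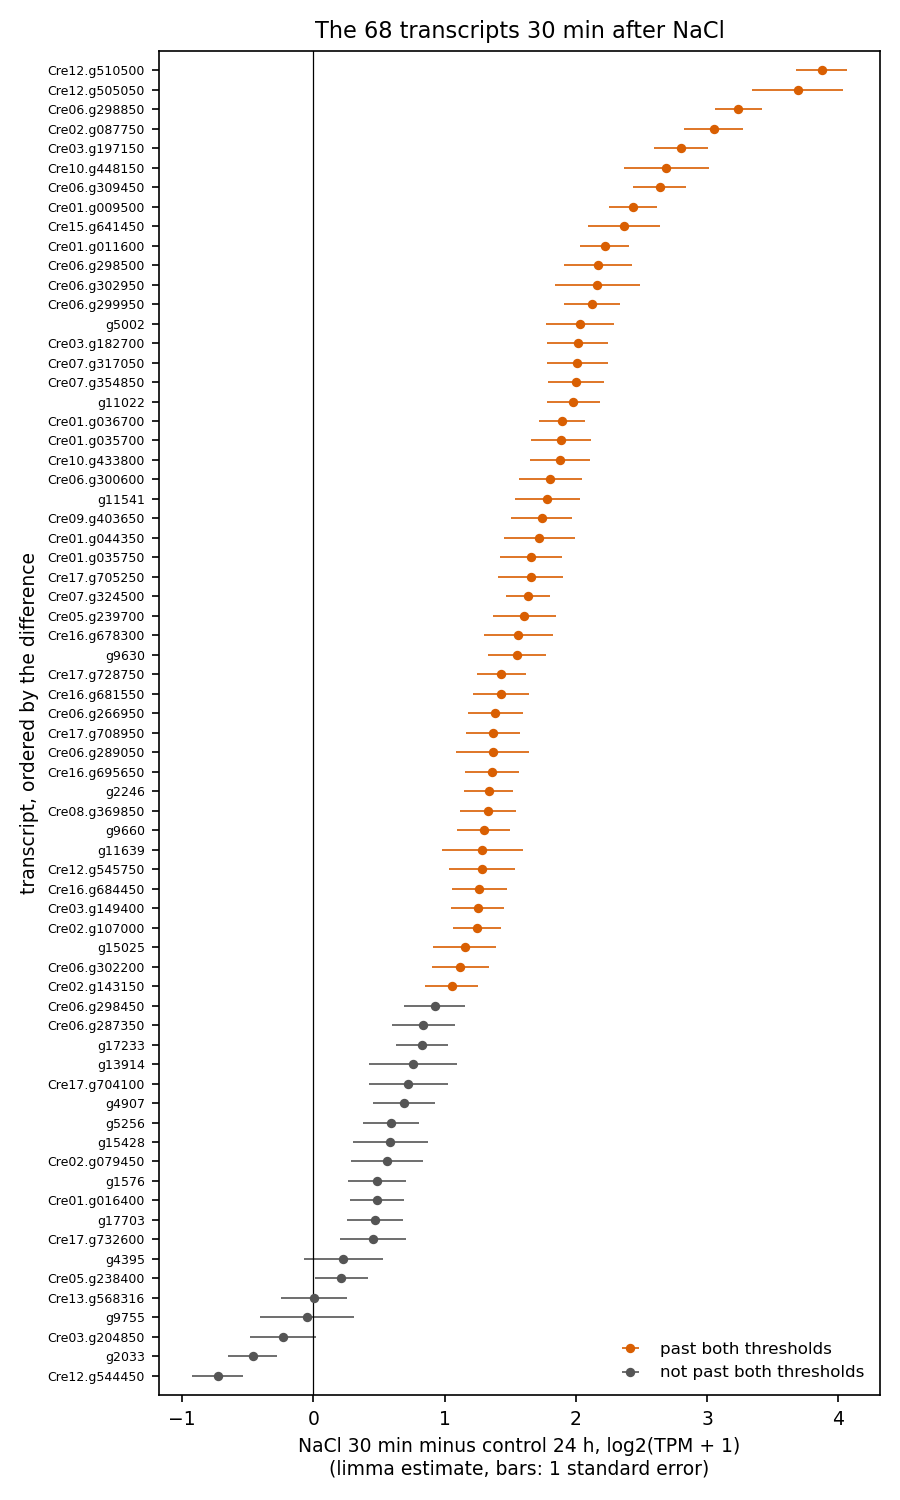
Difference NaCl 30 min minus control 24 h on the log2(TPM + 1) scale (x axis) for each of the 68 transcripts (y axis), as the limma estimate with bars of 1 standard error. The 48 orange points passed both thresholds, all on the positive side and up to 3.87; the 20 grey points did not.

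NaCl 30 min was also compared with a later time, as NaCl 30 min minus NaCl 4 h. The choice had not used the NaCl 4 h libraries, but it held D at NaCl 60 min at 0 or less. It also held D at NaCl 24 h within 1.5 of 0, and times of 1 replicate came from 1 flask. A fall by NaCl 4 h is thus in part built in, and this comparison cannot decide whether the NaCl response was a pulse. Of the 68 members, 38 were higher at NaCl 30 min and 0 lower (limma, as above), where 5.36% of all transcripts were called higher and 9.56% lower, and the median difference was 1.12 over the members and -0.24 over all. Without the filter on low values 4 were called (55 had an unadjusted p under 0.05), where 120 of all transcripts were called. A change beyond 2 log2 units was called in 7 members and in 263 of all transcripts. Both comparisons of NaCl 30 min share its 3 libraries. Leaving out NaCl 4 h replicate 1 or replicate 2 lowered the count to 25 in each case. Over all transcripts it fell from 2037 to 826 and 1146. Cre06.g302950 had the largest difference, with 19.1, 20.1 and 38.9 TPM at NaCl 30 min, against 1.55, 1.58 and 2.67 TPM at NaCl 4 h (log2 difference 3.15 ± 0.30, adjusted p = 4.47e-05, limma). For Cre02.g087750, the 4 h libraries held 1.66, 1.08 and 1.22 TPM (2.69 ± 0.24, adjusted p = 3.39e-05), against 0.353 to 1.17 TPM at control 24 h. In libraries numbered under 49 the median difference of the members was 1.19, and in those numbered 49 or more it was 1.2.

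The osmolytes were compared directly at 30 min. D was higher under NaCl than under mannitol in 48 members. By limma, 14 were higher and 7 lower at NaCl 30 min than at mannitol 30 min, where 4.19% of all transcripts were called higher and 21.5% lower (25.7% in either direction). The share of members called higher was thus above that of all transcripts and the share called lower was below it, and the median difference was 0.48 over the members and -0.59 over all. After median-ratio scaling the calls were 18 higher and 3 lower, and after quantile normalization 10 higher and 2 lower. Without the filter on low values 0 were called (24 had an unadjusted p under 0.05), where 7 of all transcripts were called. A change beyond 2 log2 units was called in 3 members and in 192 of all transcripts. The count depended on single libraries of this comparison, as did that over all transcripts. It was 4 without mannitol 30 min replicate 1, 11 without mannitol 30 min replicate 3 and 12 without NaCl 30 min replicate 1. Without mannitol 30 min replicate 2, the library in which most members were highest, it was 29. In the same order, 229, 2864, 1422 and 4187 of all transcripts were called, against 3510 with every library. The median difference of the members was 0.21 in libraries numbered under 49 and 0.89 in those numbered 49 or more.

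Among the 14 were Cre12.g505050, Cre12.g510500, Cre06.g298850, Cre02.g087750, Cre06.g302950, Cre01.g009500 and Cre07.g324500. Cre12.g505050 had 62.1, 50.5 and 96.4 TPM at NaCl 30 min, against 12.1, 18.9 and 12.3 TPM at mannitol 30 min (log2 difference 2.17 ± 0.31, adjusted p = 4.57e-10, limma). At mannitol 30 min that transcript was within or below its 17.5 to 31.3 TPM of control 0 h, although mannitol 60 min brought 102, 94.0 and 190.4 TPM. Cre02.g087750 had 14.3, 14.6 and 13 TPM at NaCl 30 min, against 3.08, 6.95 and 1.91 TPM at mannitol 30 min (1.71 ± 0.34, adjusted p = 1.06e-05). Without mannitol 30 min replicate 1 its difference was 1.63 and no longer past the threshold. For Cre07.g324500 the groups overlapped, with 47.6, 39.3 and 41.9 TPM at NaCl 30 min, against 12.8, 41.1 and 9.40 TPM at mannitol 30 min.

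The 7 that were lower under NaCl were g15428, Cre03.g204850, g9755, Cre05.g238400, g13914, Cre02.g107000 and Cre13.g568316. For g15428, the libraries held 0.622, 0.522 and 1.91 TPM at NaCl 30 min, against 5.85, 6.76 and 19.8 TPM at mannitol 30 min (-2.42 ± 0.35, adjusted p = 7.36e-10, limma). After median-ratio scaling the difference was -2 and not past the threshold. This transcript was already up at mannitol 15 min, with 4.04, 2.64 and 3.57 TPM, against 0.187 to 0.765 TPM at control 0 h. Cre03.g204850, at 0, 0 and 0.408 TPM under NaCl, had 7.19, 8.40 and 3.14 TPM at mannitol 30 min (-2.61 ± 0.34, adjusted p = 4.39e-12). For g9755, with its controls in the same range as its NaCl values, the libraries held 4.24, 3.85 and 4.53 TPM at NaCl 30 min, against 15.6, 22.5 and 18.7 TPM at mannitol 30 min (-1.93 ± 0.33, adjusted p = 4.53e-07). Cre05.g238400 was above its controls earlier under NaCl. It had 3.69, 2.92 and 2.05 TPM at NaCl 15 min, against 0.127 to 1.39 TPM at control 0 h, and had 0.982, 0.706 and 0.432 TPM at NaCl 30 min. D at NaCl 15 min was also 1.44 in Cre02.g107000 and 0.99 in g13914, but 0.19 in Cre03.g204850 and 0.0015 in Cre13.g568316.

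**Figure D4:**
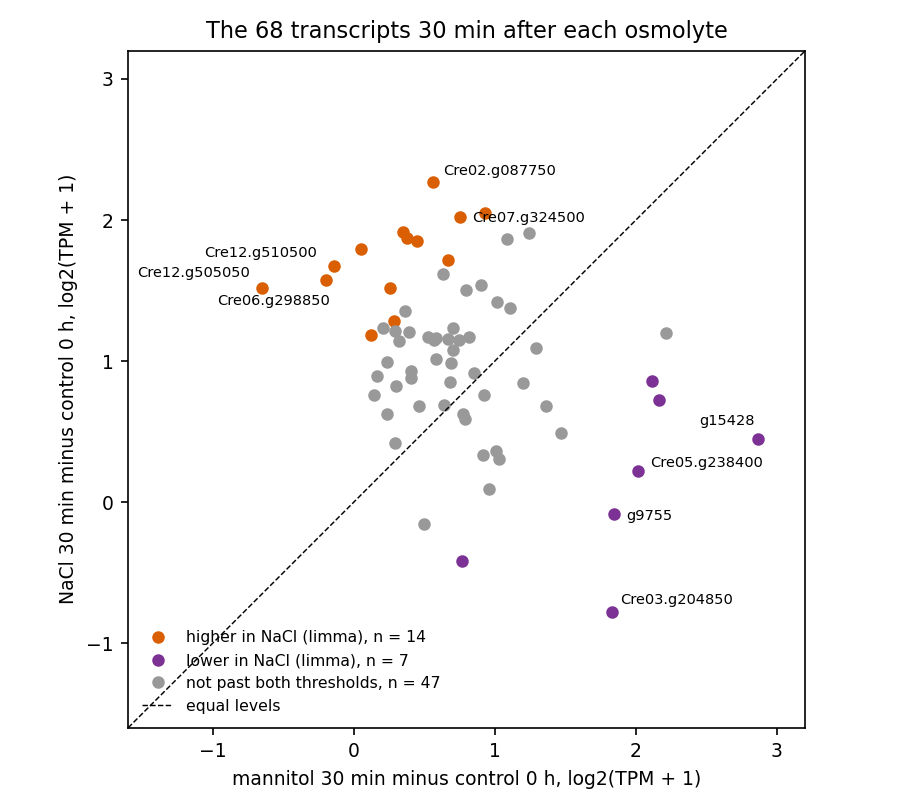
D at NaCl 30 min (y axis) against D at mannitol 30 min (x axis), both in log2 units relative to the same control 0 h libraries, for the 68 transcripts. Orange points (14) were called higher and purple points (7) lower under NaCl by limma; the dashed line marks equal levels, and 48 points lie above it.

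The mannitol rise had begun by 30 min. Against mannitol 15 min, 7 of the 68 members were higher at mannitol 30 min and 0 lower (limma, as above), where 0.396% of all transcripts were called higher and 0% lower. All 68 differences were above 0, with a median of 0.87, against 0.03 over all transcripts. The 7 were g9755, Cre05.g238400, Cre02.g107000, g2246, Cre03.g204850, Cre02.g079450 and Cre13.g568316. The largest was that of g9755, with 15.6, 22.5 and 18.7 TPM at mannitol 30 min, against 1.47, 3.5 and 6.46 TPM at mannitol 15 min (2.18 ± 0.42, adjusted p = 0.000159). For g2246 the values were 2.49, 7.04 and 4.59 TPM at mannitol 30 min, against 0.213, 0.162 and 0.474 TPM at mannitol 15 min (2.08 ± 0.36, adjusted p = 1.26e-05). No member and no other transcript passed after median-ratio scaling or quantile normalization, although 33 and 31 members then had an unadjusted p under 0.05, as 44 had before. The count was 2 without mannitol 30 min replicate 2, 4 without mannitol 15 min replicate 1 or replicate 2, and 3 without mannitol 15 min replicate 3. Over all transcripts these were 12, 55, 25 and 19, against 54 with every library. Without mannitol 30 min replicate 2 the median difference was 0.52 over the members and 0.08 over all. In that fit 17 members had an unadjusted p under 0.05. The median difference of the members was 1.08 in libraries numbered under 49 and 0.42 in those numbered 49 or more.

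At NaCl 4 h, 4 of the 68 members (5.88%) had a D of 1 or more, as did 4.36% of all transcripts. They were Cre12.g505050 (1.69), Cre12.g510500 (1.66), Cre03.g197150 (1.52) and Cre07.g324500 (1.14), while under mannitol none of the 68 reached 1 at 4 h. In Cre12.g510500 the NaCl values were 47.5, 50.0 and 50.2 TPM at 30 min, 5.54, 5.71 and 5.25 TPM at 60 min, 53.0, 42.5 and 50.8 TPM at 4 h and 52.2, 37.3 and 32.4 TPM at 24 h. The low values at 60 min, which the choice of members required, thus lay between high ones. Cre12.g505050 followed the same course, with 6.33, 8.55 and 9.21 TPM at NaCl 60 min and 55.6, 44.5 and 174 TPM at 4 h. In untreated cells both were lower at control 24 h than at control 0 h, with a D of -2.20 and -2.17, among 7 members with a D of -1 or less there.

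Compared directly at 4 h, 2 of the 68 members were lower under mannitol than under NaCl and 0 were higher (limma, as above), where 0.542% of all transcripts were called lower and 0.505% higher (1.05% in either direction). Cre12.g510500 had 6.62, 10.1 and 6.45 TPM at mannitol 4 h, against 53.0, 42.5 and 50.8 TPM at NaCl 4 h (-2.53 ± 0.33, adjusted p = 0.000304). Cre03.g197150 had 1.10, 0.841 and 0.568 TPM at mannitol 4 h, against 7.34, 5.5 and 8.27 TPM at NaCl 4 h (-2.12 ± 0.31, adjusted p = 0.000899). For Cre12.g505050, with 8.55, 14.7 and 25.3 TPM at mannitol 4 h, the groups did not overlap, but the difference of -2.28 ± 0.51 missed the threshold (adjusted p = 0.0324, limma). With the replicate number as a block, 7 members were called, 2 higher and 5 lower under mannitol, while the count over all transcripts rose from 143 to 495. Without mannitol 4 h replicate 1 or replicate 2 the count of members was 0, and without NaCl 4 h replicate 3 it was 5. Over all transcripts these were 14, 0 and 274. The highest D at mannitol 4 h were 0.85 for Cre06.g300600, 0.84 for g13914, 0.81 for Cre02.g107000 and 0.69 for Cre06.g299950.

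For mannitol 24 h against control 24 h, 0 of 68 were called higher or lower by limma, where 0.908% of all transcripts were called higher and 0.168% lower, and 23 members had an unadjusted p under 0.05. The median difference was 0.32 over the members and 0.08 over all, and 52 members were above 0. Cre12.g544450 stood out by value, with 2.85, 3.68 and 14.6 TPM at mannitol 24 h, against 1.35, 1.29, 1.33 and 0.683 TPM at control 24 h. Its difference of 1.61 ± 0.42 did not pass (adjusted p = 0.0647, limma), although the groups did not overlap. Without control 24 h replicate 5, 1 member was called, while the count over all transcripts rose from 147 to 335. The D of Cre12.g544450, 2.18 at mannitol 24 h, was close to its 2.19 at mannitol 60 min.

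Whether the osmolyte difference changed between 30 min and 4 h was tested as an interaction. By limma, 0 of 68 members passed an adjusted p under 0.01, where 0.0879% of all transcripts were called higher and 0.271% lower, and 23 members had an unadjusted p under 0.05. The median was 0.42 over the members and -0.40 over all, and 46 members were above 0. With the replicate number as a block 10 members passed, and with a joint fit 7. Over all transcripts the counts rose as well, from 49 to 523 with the block and 207 in the joint fit. Leaving out 1 library gave 0 to 3 members, with 3 only without mannitol 30 min replicate 2, where 113 of all transcripts passed.

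**Figure D5:**
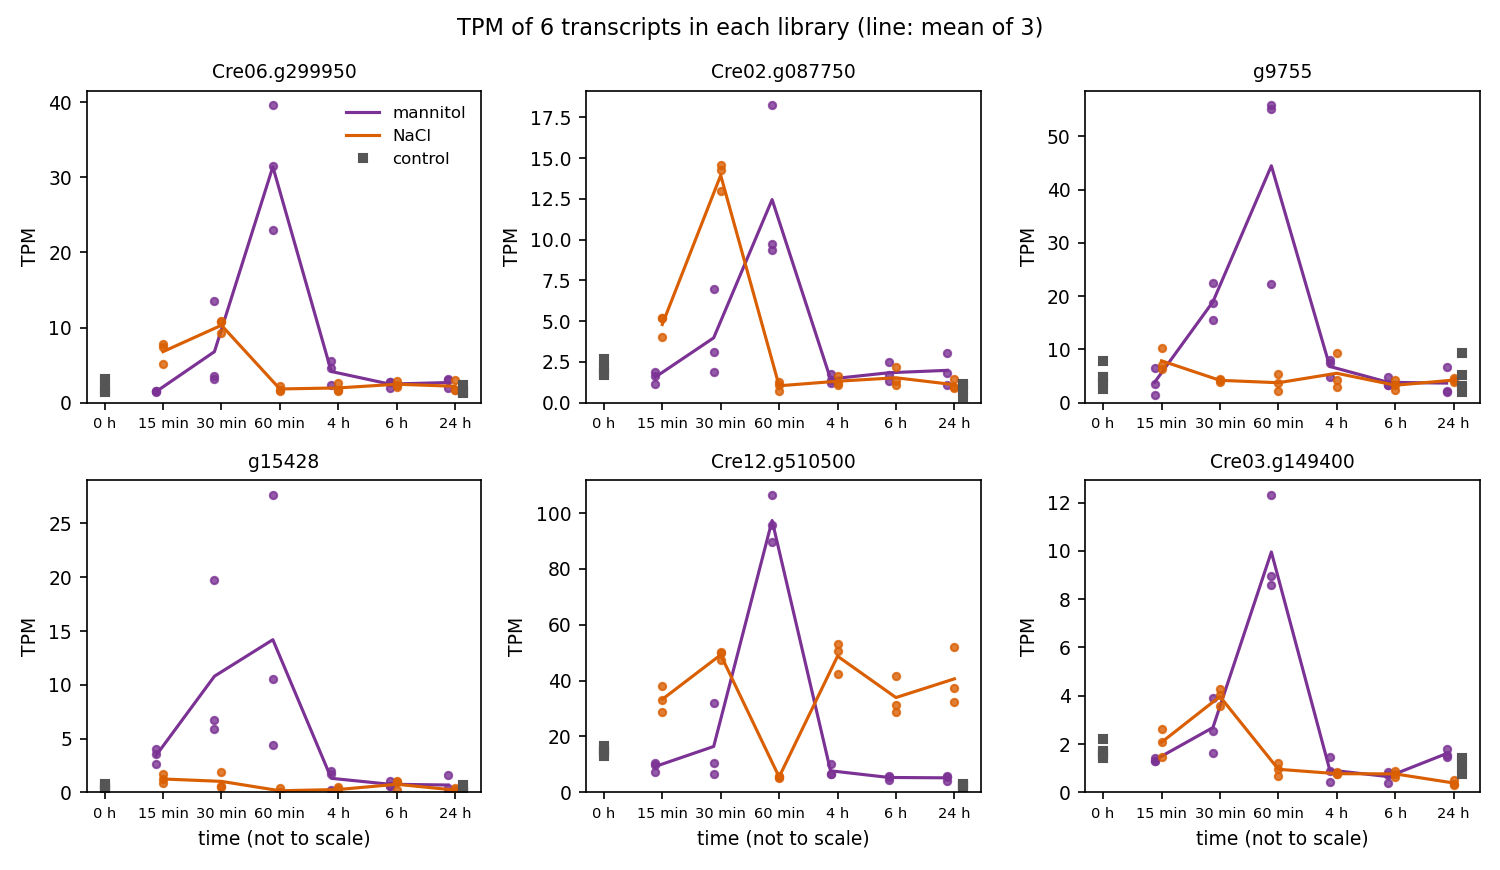
TPM (y axes, from 0, a scale for each panel) of 6 transcripts in every library, by time (x axes, not to scale). Points are libraries and lines join the means of 3; Cre06.g299950, Cre02.g087750 and Cre03.g149400 have a NaCl pulse at 30 min before the mannitol peak at 60 min, g9755 and g15428 have next to none at NaCl 30 min, and Cre12.g510500 is high under NaCl at 30 min and again from 4 h.

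Cre03.g149400 is described in the study's annotation as an RWP-RK transcription factor, a family of the green lineage whose known members act in nitrate responses and in gamete development. It was the member closest to the limit at mannitol 60 min, with 8.95, 12.3 and 8.58 TPM there, against 1.56, 1.64, 2.20, 1.43 and 1.70 TPM at control 0 h. Under NaCl it had 4.27, 4.05 and 3.59 TPM at 30 min and 1.22, 0.961 and 0.688 TPM at 60 min. At NaCl 30 min it was higher than at control 24 h, where it had 0.947, 0.741, 1.43 and 1.29 TPM (1.25 ± 0.20, adjusted p = 0.000622, limma), and higher than at NaCl 4 h (1.49 ± 0.23, adjusted p = 0.00084). It thus had the course of the whole set at a low level.

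The most abundant member was g11639, with 139.6, 120.2 and 160.1 TPM at mannitol 60 min, against 19.3 to 41.8 TPM at control 0 h. At NaCl 30 min it had 68.2, 70.6 and 81.0 TPM, against 21.8, 20.8, 28.0 and 57.3 TPM at control 24 h. The log2 difference of 1.29 ± 0.31 (adjusted p = 0.00578, limma) lost its call when any library other than control 24 h replicate 5 was left out, with values of 1.13 to 1.34. Cre12.g505050, Cre07.g324500 and Cre12.g510500 came next by mean TPM at mannitol 60 min, and these 3 had a D of 1 or more at NaCl 4 h. Such a D was held by 5.88% of the members and 4.36% of all transcripts. D understates changes of scarce transcripts, and the choice required the low level at NaCl 60 min. A link between abundance and the level at 4 h was not tested.

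By gene order in RefSeq's table of assembly Chlamydomonas_reinhardtii_v5.5, which matched 49 of the 68 members, 11 matched members (22.4%) were on chromosome 6, where 9.36% of the 9892 matched genes tested are. This order was looked at after the members were known, and it is a description. There were 2 adjacent pairs, Cre06.g298450 with Cre06.g298500 and Cre01.g035700 with Cre01.g035750. Cre06.g298450 had 15.1, 15.8 and 15.2 TPM at mannitol 60 min, against 2.37 to 3.93 TPM at control 0 h, and its neighbour had 35.6, 49.5 and 23.7 TPM, against 3.41 to 12.9 TPM. Cre01.g035700 had 19.2, 20.4 and 9.29 TPM at mannitol 60 min, against 1.88 to 4.28 TPM at control 0 h, and Cre01.g035750 had 32.9, 44.6 and 20.8 TPM, against 4.83 to 9.09 TPM. On chromosome 6, the stretch from Cre06.g298450 to Cre06.g302950 held 7 members (Cre06.g298850, Cre06.g299950, Cre06.g300600 and Cre06.g302200 lie between) among 67 genes tested, whose median D at mannitol 60 min was -0.39.

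Compared with the other 322 transcripts that had a D of 2 or more at mannitol 60 min, the 68 were less raised at NaCl 30 min and were more often called above NaCl 4 h. At NaCl 30 min the median D was 1.12 in the members and 1.97 in the others, and 54.4% of the members and 90.4% of the others had a D of 1 or more. Against control 24 h, 48 of 68 members (70.6%) and 287 of 322 others (89.1%) were called higher at NaCl 30 min. Against NaCl 4 h, 55.9% of the members and 43.2% of the others were called higher, with a median difference of 1.12 and 0.94. Against mannitol 30 min, 20.6% of the members and 57.5% of the others were called higher, and 10.3% and 3.11% lower. At mannitol 60 min itself the medians were 2.28 and 2.55. From NaCl 60 min on, which the choice used in part, the others stayed up, with median D of 1.17, 0.91 and 0.85 for 60 min, 4 h and 6 h. Those of the members were -0.34, -0.20 and -0.26. At mannitol 4 h the medians were -0.05 in the members and 0.36 in the others. The choice required members, but not the others, to be low at NaCl 60 min and under 1.5 at NaCl 15 min. Of the 390 transcripts with a D of 2 or more at mannitol 60 min, 85 were at 0 or less at NaCl 60 min. Most of the others were thus above 0 there, and the sets were split by their NaCl level. Lower NaCl levels in the members are in part built in by that split, and the difference between both sets was not tested.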

How the data were processed

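RNA-seq libraries (Kapa mRNA HyperPrep) were aligned by the authors (BWA, Chlamydomonas reference genome), who used DESeq2 for calls of their own. The authors deposited TPM values, 1 column per library. The tool behind the TPM is not given in the sources used here. Each library sums to 1000000 TPM, so depth is unknown and no interval for counting error was set.

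Tests ran on log2(TPM + 1) in limma 3.58.1 (R 4.3.3; linear models, then eBayes with a trend and robust option), each comparison fitted on its own groups over 13651 transcripts, with Benjamini-Hochberg adjustment. Calls needed more than 1 log2 unit of change besides an adjusted p under 0.01 (for the interaction, the adjusted p alone). All adjusted p-values come from this test. Tables were made with Python 3.11.15 and numpy 2.4.6, plots with matplotlib 3.10.9. The fits were tested on simulated data.

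The members and lists were chosen with earlier results of these data known. Groups and replicate numbers came from the sample labels. Times of 1 replicate came from 1 flask, and p-values measure the spread between these libraries. Deviations of same-numbered libraries from their group means correlated at 0.183, 0.189 and 0.4 for NaCl 30 min and NaCl 4 h, and at 0.268, 0.244 and 0.629 for mannitol 4 h and NaCl 4 h, so the numbers were taken to pair these libraries and not those of the other comparisons. Differently numbered replicates 1 and 2 correlated as much, at 0.195 and 0.182, and at 0.386 and 0.356, so the pattern mainly sets replicate 3 apart. For mannitol 30 min and mannitol 15 min, replicates 1 and 2 correlated across numbers, at 0.475 and 0.503. With the same number they gave -0.076 and -0.086, so a block by number may not match the flasks there. Mannitol 24 h replicate 3 correlated at 0.706 with control 24 h replicate 5, and at -0.449 with control 24 h replicate 3. For NaCl 30 min replicate 3 these were 0.366 and -0.248. A block by number may thus not match the flasks in the comparisons with control 24 h either.

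Named transcripts were those with the 8 largest D at mannitol 60 min, the 8 largest remaining gaps between mannitol 60 min and NaCl 60 min, the 6 largest and 4 smallest D at NaCl 30 min, the 4 highest mean TPM at mannitol 60 min, the 4 largest D at mannitol 4 h, any annotated member, 2 on each side of each limit, and members adjacent in gene order. Cre06.g298850, Cre03.g197150, Cre05.g238400 and Cre06.g302200 were named after their values were seen. Alternatives were median-ratio scaling, quantile normalization, 0.1 as the pseudocount, all transcripts unfiltered, other thresholds, a replicate block, a joint fit over all 14 groups and each library left out; for the choice of members also a mean TPM of 5 or more, removal of g15293.t1 and libraries numbered under 49 alone. No sequences are printed, as no table used here holds them.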

Additional observations from a re-analysis of the deposited data

Results flagged for a closer look

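Of 78 sets of untreated libraries looked at, 7 held a library far from the others of its group. The sets were the member median and 38 named transcripts, at control 0 h and at control 24 h. For independent sets chance gives about 1 in 20, but these sets share their libraries and are not independent. All 7 were in control 24 h. In 5 of these the library was replicate 5, with 9.35 TPM for Cre12.g505050, 2.78 TPM for Cre17.g732600, 1.51 TPM for g13914, 0.683 TPM for Cre12.g544450 and 0.253 TPM for g2246. Replicate 5 was the only control 24 h library numbered 49 or more, and whether that bears on the flags was not tested. Cre06.g299950 had 2.38 TPM in replicate 3, and Cre02.g107000 had 0.14 TPM in replicate 2, where the other 3 libraries were listed at 0. The other libraries of g13914 and g2246 were listed at 0 too, and such a set is flagged whatever the size of its 1 value above 0. Without replicate 5, 50 members were called higher at NaCl 30 min than at control 24 h, against 48 with it. Over all transcripts, 3884 and 3471 were called in either direction.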

How the results depend on the processing

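The number of transcripts that met the limits was 39 after quantile normalization (13 of the 68 among them), 108 with a pseudocount of 0.1 (48 of the 68) and 24 if the mean TPM had to reach 5. It was 91 by median-ratio scaling, of which 26 were among the 68, 70 without g15293.t1 (46 of the 68) and 73 in libraries numbered under 49 (57 of the 68), and leaving out 1 library gave 47 to 86. Of NaCl 30 min against mannitol 30 min, 12 members were called after quantile normalization, 0 without the filter on low values (24 had an unadjusted p under 0.05), 3 with a change beyond 2 and 4 to 29 with 1 library left out. Over all transcripts these counts were 1244, 7, 192 and 229 to 4187. Of NaCl 30 min against control 24 h, 17 were called beyond 2, and 43 to 50 with 1 library left out. Over all transcripts these were 651 and 2667 to 3884. Of NaCl 30 min against NaCl 4 h, 4 were called without the filter (55 had an unadjusted p under 0.05), 7 beyond 2 and 25 to 42 with 1 library left out. Over all transcripts these were 120, 263 and 800 to 2472. Of mannitol 30 min against 15 min, 0 were called by limma after median-ratio scaling, 0 after quantile normalization and 0 without the filter (33, 31 and 24 had an unadjusted p under 0.05), 4 beyond 2, 13 in the joint fit and 2 to 7 with 1 library left out. Over all transcripts these were 0, 0, 0, 21, 101 and 12 to 67. Of mannitol 4 h against NaCl 4 h, 0 were called without the filter, 6 at an adjusted p under 0.05, 4 in the joint fit and 0 to 5 with 1 library left out. Over all transcripts, 0 were called without the filter, 454 at 0.05, 524 in the joint fit and 0 to 406 with 1 library left out. Of mannitol 24 h against control 24 h, 3 were called at 0.05, 2 in the joint fit and 0 to 1 with 1 library left out. Over all transcripts, 409 were called at 0.05, 388 in the joint fit and 33 to 335 with 1 library left out. The interaction gave 1 after median-ratio scaling, 7 in the joint fit and 0 to 3 with 1 library left out. Over all transcripts these were 126, 207 and 1 to 113. With the replicate block the counts were 23, 46, 43, 5, 7, 0 and 10 for NaCl 30 min against mannitol 30 min and then in the order above. Over all transcripts they were 3623, 3198, 2523, 26, 495, 0 and 523. In the comparisons where the numbers do not pair the libraries, same-numbered correlations ran from -0.449 to 0.654. For 72 results on single transcripts, 816 of 1034 alternatives kept direction and call, 218 lost the call and 0 reversed; the causes were not tested. Depth is unknown, which limits every value near 0.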
